A study of Mus musculus with 17 samples.

Results

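The S100A, annexin and galectin families of calcium- and sugar-binding proteins were described in mouse RNA-seq data. The study concerns YAP fusion proteins and supratentorial ependymoma, which is a forebrain tumour. Members were the genes named S100a, Anxa or Lgals followed by a number, which gave 33 genes of 52850 symbols in the count tables: 13 S100a genes, 12 annexin (Anxa) genes and 8 galectin (Lgals) genes. A filter on low values was passed by 26 members: 9 S100a, 10 Anxa and 7 Lgals genes. The other 7 (S100a2, S100a3, S100a5, S100a14, Anxa10, Anxa13 and Lgals12) were at or below 1.32 CPM in all 12 libraries. CPM is a gene's read count relative to the scaled size of its library.

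The YAP-M group held 4 libraries of brain tumours that arose after a construct called YAP-M had been brought into the embryonic brain by in utero electroporation, in which an electric pulse carries DNA into cells. The YMdIDR group held 3 libraries made with YAP-MΔIDR; one field of their labels gives brain tumour as the tissue, while others give neural progenitors, made from embryonic stem (ES) cells, that overexpress YAP-MΔIDR. The SVZ group held 3 libraries whose treatment is wild-type, although their tissue is also labelled brain tumour. The NSC-YAP group held 2 libraries of ES-derived neural progenitor cells, grown with epidermal and basic fibroblast growth factor, that overexpressed YAP. The Yap1 product YAP is a coactivator of transcription; it works through TEAD factors, and the Hippo pathway restrains it. Mouse strain, age, the promoter that drives each construct and the number of clones are not given in the labels. Whether replicates are separate animals or cultures is not stated in the labels, so the p-values reflect only how much these samples vary, and some of that variation may be technical.

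S100 proteins are small calcium-binding proteins with EF-hand motifs; they act as dimers inside cells, and some are secreted and bind receptors such as RAGE (Ager) and TLR4. Annexins bind acidic phospholipids in the presence of calcium and take part in membrane traffic, membrane repair and the control of plasminogen at the cell surface. Annexin A2 and S100A10 form a heterotetramer, and annexin A1 has S100A11 as its partner, so the families are linked by physical complexes. Galectins are lectins that bind beta-galactosides on branched glycans of cell surface and matrix glycoproteins. In brain, these genes are known mostly from glia, vessels, immune cells and tumour cells rather than from mature neurons.

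Of the 33 members, 25 matched the RefSeq promoter windows of build GRCm38.p6, which run from 250 bases before to 50 bases after a gene's start, with 32 windows in all. Of these, 3 are printed here, on the strand of the gene, because they belong to the member with the largest rise in YAP-M over SVZ (Anxa1), the member with the highest level per length in YAP-M (S100a11) and a member that shares its promoter window with a neighbour (S100a13). In Anxa1 (chr19:20390622-20390921, minus strand) the capitals mark the match to GGAATG, the core recognised by TEAD factors, here on the opposite strand. In S100a11 (chr3:93520246-93520545, plus strand) they mark both matches to TGANTCA, the core recognised by AP-1 factors. In S100a13 (chr3:90514185-90514484, plus strand) they mark the 204 bases shared with the window of S100a1.
Anxa1: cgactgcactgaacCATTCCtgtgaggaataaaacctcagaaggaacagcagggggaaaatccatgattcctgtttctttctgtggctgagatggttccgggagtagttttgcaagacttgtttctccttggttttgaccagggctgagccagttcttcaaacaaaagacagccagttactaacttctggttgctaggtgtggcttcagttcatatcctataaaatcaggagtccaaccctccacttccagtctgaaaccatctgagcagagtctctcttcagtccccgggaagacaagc
S100a11: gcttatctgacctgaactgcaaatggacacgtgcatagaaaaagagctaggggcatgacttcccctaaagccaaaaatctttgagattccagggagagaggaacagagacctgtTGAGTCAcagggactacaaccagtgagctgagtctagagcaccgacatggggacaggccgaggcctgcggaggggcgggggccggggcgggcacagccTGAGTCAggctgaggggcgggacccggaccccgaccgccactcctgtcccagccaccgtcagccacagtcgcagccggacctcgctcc
S100a13: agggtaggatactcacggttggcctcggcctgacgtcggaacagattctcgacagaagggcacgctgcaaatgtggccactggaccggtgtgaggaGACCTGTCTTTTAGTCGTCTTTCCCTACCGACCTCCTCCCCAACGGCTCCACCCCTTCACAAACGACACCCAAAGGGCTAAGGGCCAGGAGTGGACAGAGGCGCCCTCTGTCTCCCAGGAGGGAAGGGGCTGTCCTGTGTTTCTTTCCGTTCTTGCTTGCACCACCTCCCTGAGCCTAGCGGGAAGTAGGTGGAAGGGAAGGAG

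Both motifs were searched on both strands. GGAATG was in 2 of the 32 members' windows (6.25%), those of Anxa1 and S100a3, and in 14.7% of all 32851 windows of the table. The match in the Anxa1 window began at position -236 from the start site. TGANTCA was in 4 of the members' windows (12.5%), those of S100a11, S100a16, Anxa2 and Anxa10, and in 7.81% of all windows. The matches in S100a11 began at positions -136 and -38, and the match in Anxa2 began at -95. A match describes the letters of a window and is not evidence of a bound factor.

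Total counts per library ranged from 20784130 to 25463303. Members together took 0.470% to 0.542% of all counts in YAP-M, 0.595% to 0.698% in YMdIDR, 0.0449% to 0.0465% in SVZ and 0.0904% to 0.0944% in NSC-YAP. Reads assigned to Yap1 stood at 92.7 to 105 CPM in YAP-M, 183 to 1274 CPM in YMdIDR, 21.5 to 27.9 CPM in SVZ and 238 to 241 CPM in NSC-YAP. Where a construct was introduced, they may come from the gene, the construct or both, which the counts do not separate. Marker genes of other cell types differed between the groups: the summed level of 10 microglia and macrophage markers was 1381 to 2126 CPM in YAP-M, 1664 to 1806 CPM in YMdIDR, 342 to 464 CPM in SVZ and 42.3 to 44.2 CPM in NSC-YAP. The sum of 6 oligodendrocyte markers was 24675 to 29239 CPM in SVZ, 584 to 2876 CPM in YAP-M, 314 to 1022 CPM in YMdIDR and 147 to 149 CPM in NSC-YAP. Beside macrophage markers the YMdIDR libraries carried endothelial transcripts (158 to 221 CPM over 6 markers) and the fibroblast collagen Col1a1 (94.5 to 400.2 CPM), against 22.2 to 23.1 and 4.65 to 5.09 CPM in NSC-YAP. Of 6 neural progenitor markers, 2 (Sox2 and Prom1) were called higher in YAP-M than in YMdIDR and 1 (Nes) lower, and in YMdIDR against NSC-YAP 2 were called higher and 4 lower. Over all tested genes the shares were 9.61% and 6.78% in the first comparison and 27.4% and 20.4% in the second. The sum of 6 markers of multiciliated ependymal cells was 10.2 to 26.2 CPM in YAP-M, below the 43.7 to 58.5 CPM of SVZ. The share of counts from mitochondrial genes was 12.7% to 16.98% in SVZ and 4.91% to 7.05% elsewhere. Xist and the Y-linked gene Ddx3y differed between libraries within YAP-M, YMdIDR and SVZ, and no term for sex was fitted. These are bulk samples, in which fewer cells of a type and less RNA per cell cannot be told apart.

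Most of the tested members had higher means in YAP-M and YMdIDR than in SVZ and NSC-YAP, although some of them, such as S100a4, S100a8 and Lgals7, were low in every group. A member was called where the adjusted p was under 0.05 and the log2 fold change at least 1 in size. In YAP-M against SVZ, 17 of the 26 tested members were called higher, beside 25.8% of all 18329 tested genes, and 1 was called lower, beside 28.9%. Their median log2 fold change was 2.99, beside -0.04 over all tested genes. The 17 were S100a4, S100a6, S100a8, S100a9, S100a10, S100a11, Anxa1, Anxa2, Anxa3, Anxa4, Anxa5, Anxa7, Anxa8, Lgals1, Lgals3, Lgals7 and Lgals9, and S100a16 was the member called lower. Of these, S100a9 passed the filter only through the YAP-M libraries. In YMdIDR against SVZ, 17 members were called higher (26.9% of all tested genes) and 2, S100a1 and S100a16, lower (29.6%). The median was 3.08, beside -0.01 over all tested genes. Both comparisons share the SVZ libraries.

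Against NSC-YAP the members were higher in more cases still. In YAP-M, 20 were called higher (28.9% of all tested genes) and 4 lower (21.6%), the 4 being S100a16, Lgals1, Lgals2 and Lgals4. The fitted median was 5.82, and 5.49 with the 4 genes that had no count in NSC-YAP set at their lower bound, beside 0.10 over all tested genes. In YMdIDR, 21 were called higher (27.4%) and 3 lower (20.4%), with a median of 6.01, or 4.56 with those genes at their bound, beside 0.13 over all tested genes. NSC-YAP against SVZ was mixed, with 7 members called higher (17.5%) and 14 lower (27.6%), a fitted median of -2.10 and one of -1.48 at the bounds, beside -0.10. Without NSC-YAP replicate 2 the 7 became 4, and without either NSC-YAP library the 4 members lower in YAP-M became 2. Lgals2 passed the filter only through the NSC-YAP libraries and was no longer tested when either was left out. The labels of NSC-YAP give neural progenitor cells in culture, whereas YAP-M is tissue, so construct and culture cannot be told apart in that comparison. Quantile normalization moved the median of all tested genes by -0.28 in YAP-M against NSC-YAP, -0.26 in YMdIDR against NSC-YAP, 0.11 in YMdIDR against SVZ and 0.35 in NSC-YAP against SVZ. Under it the share of higher genes among all called genes went from 57.3% to 43.3%, from 57.3% to 44.3% and from 38.7% to 55.9% in the 3 comparisons with NSC-YAP.

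Between YAP-M and YMdIDR the members were called about as often as all tested genes. In YAP-M 3 members were called higher (Anxa8, S100a8 and S100a9, beside 9.61% of all tested genes) and 2 lower (Lgals1 and Anxa6, beside 6.78%), with a median of -0.17, beside 0.01 over all tested genes. Those shares, 11.5% and 7.69% of the tested members, were near the background. S100a9 was admitted to the test only through the YAP-M libraries. By adjusted p alone, 4 members were higher in YAP-M and 5 lower. Without YAP-M replicate 4 or YMdIDR replicate 2 the 3 became 5, and without YMdIDR replicate 3 they became 2. Over the 26 tested members the highest group mean was in YMdIDR for 14, in YAP-M for 8, in NSC-YAP for 3 and in SVZ for 1. The 3 of NSC-YAP were S100a16, Lgals2 and Lgals4, and that of SVZ was S100a1.

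**Figure D1:**
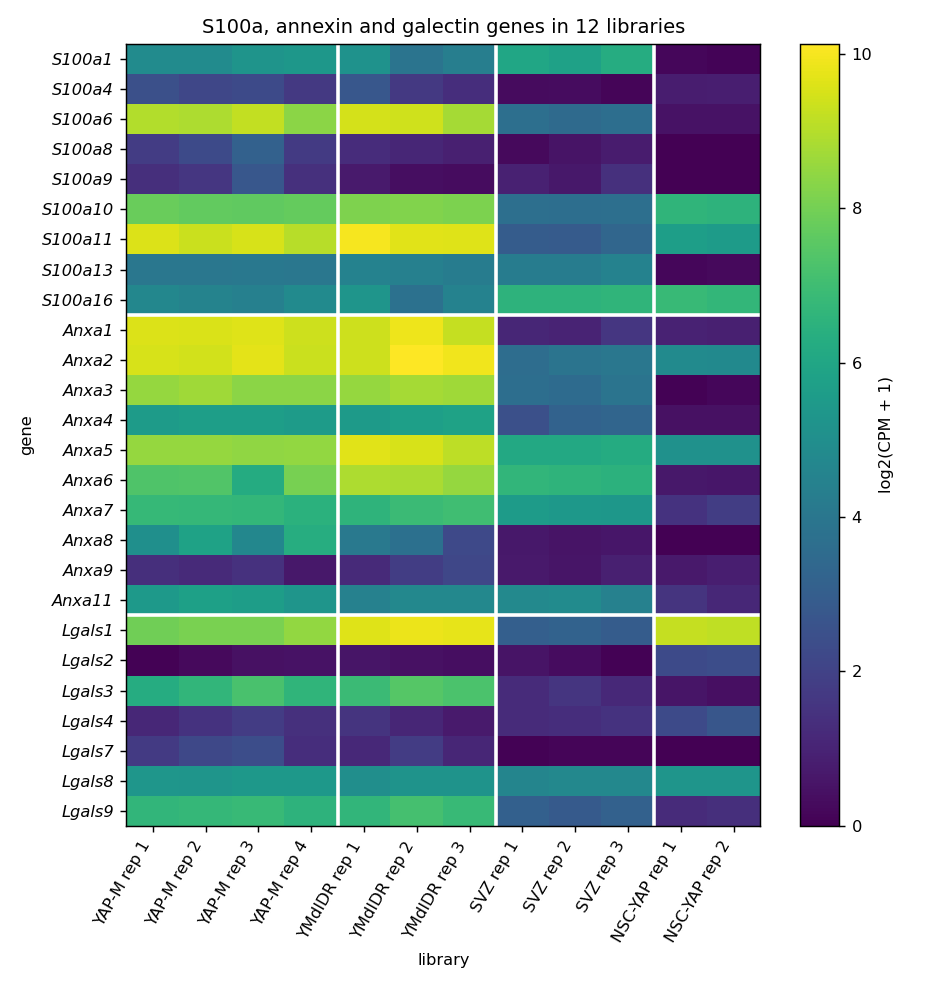
Heat map of the 26 tested genes (vertical axis, by family) in the 12 libraries (horizontal axis, by group), coloured by log2(CPM + 1). The block of S100a6, S100a10, S100a11, Anxa1, Anxa2, Anxa3 and Anxa5 is bright in all 7 YAP-M and YMdIDR libraries, and Lgals1 is bright in NSC-YAP as well.

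S100a11, S100a6 and S100a10 were the S100 genes with the highest levels in YAP-M and YMdIDR. S100a11 (ENSMUSG00000027907, chromosome 3, 93520488 to 93526287, plus strand) encodes a dimeric S100 protein that binds annexin A1. It stood at 781, 636, 727 and 525 CPM in the YAP-M libraries, 1029, 825 and 803 CPM in YMdIDR, 6.82, 6.47 and 9.19 CPM in SVZ and 50.3 and 45.6 CPM in NSC-YAP. All 7 YAP-M and YMdIDR libraries were above all others, and NSC-YAP lay between them and SVZ. The log2 fold change was 6.48 ± 0.22 (SE) in YAP-M over SVZ (adjusted p = 2.67e-09), 3.80 ± 0.22 over NSC-YAP (adjusted p = 8.77e-08) and 2.68 ± 0.20 in NSC-YAP over SVZ (adjusted p = 6.95e-07). Against YMdIDR it was -0.41 ± 0.16 (adjusted p = 0.0570), which did not pass the test, although the groups did not overlap.

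S100a6 (ENSMUSG00000001025, chromosome 3, 90612882 to 90624181, plus strand) encodes calcyclin, an S100 protein of proliferating and migrating cells. Its values were 500.1, 471, 591 and 331 CPM in YAP-M, 709.8, 677 and 435 CPM in YMdIDR, 11.9, 10.2 and 11.7 CPM in SVZ and 0.407 and 0.408 CPM in NSC-YAP. Here NSC-YAP was the lowest group, below SVZ without overlap, the reverse of the order in S100a11. YAP-M exceeded SVZ by a log2 fold change of 5.39 ± 0.25 (SE, adjusted p = 2.33e-08) and NSC-YAP by 10.16 ± 0.41 (adjusted p = 7.52e-09), and NSC-YAP against SVZ gave -4.78 ± 0.36 (adjusted p = 8.08e-07). The YAP-M and YMdIDR values overlapped, with a difference of -0.36 ± 0.20 (adjusted p = 0.161).

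S100a10 (ENSMUSG00000041959, chromosome 3, 93555080 to 93564643, plus strand) encodes the light chain of the annexin A2 heterotetramer; unlike most S100 proteins it does not bind calcium. The levels were 222, 208, 203 and 212 CPM in YAP-M, 287, 293 and 282 CPM in YMdIDR, 11.9, 11.7 and 12.1 CPM in SVZ and 99.0 and 92.8 CPM in NSC-YAP. No 2 groups overlapped, and the spread within groups was small, with a coefficient of variation of 3.87% in YAP-M and 1.90% in YMdIDR. In order, YMdIDR was above YAP-M, YAP-M above NSC-YAP and NSC-YAP above SVZ. YAP-M exceeded SVZ by 4.15 ± 0.08 (log2, SE, adjusted p = 3.77e-10) and NSC-YAP by 1.14 ± 0.08 (adjusted p = 3.74e-07). Its difference from YMdIDR, -0.44 ± 0.07 (adjusted p = 5.56e-04), passed the adjusted p and not the fold minimum. S100a4, which encodes metastasin, a marker of motile fibroblasts and macrophages, was far lower, at 2.19 to 4.60 CPM in YAP-M, 1.5 to 5.64 CPM in YMdIDR, 0.0977 to 0.270 CPM in SVZ and 0.733 to 0.815 CPM in NSC-YAP. It was called higher in YAP-M than in SVZ, at 4.09 ± 0.57 (adjusted p = 5.04e-05).

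S100a16, S100a1 and S100a13 did not share this order. S100a16 (ENSMUSG00000074457, chromosome 3, 90537254 to 90543151, plus strand) encodes a broadly expressed S100 protein. Its levels were 25.0, 21.8, 20.4 and 27.5 CPM in YAP-M, 38.3, 12.6 and 21.3 CPM in YMdIDR, 93.4, 92.1 and 97.6 CPM in SVZ and 112 and 104 CPM in NSC-YAP. The SVZ and NSC-YAP libraries were all above the 7 others. The log2 fold change of YAP-M against SVZ was -1.99 ± 0.28 (SE, adjusted p = 4.74e-05) and against NSC-YAP -2.19 ± 0.30 (adjusted p = 5.37e-05). The difference between YAP-M and YMdIDR, -0.02 ± 0.28 (adjusted p = 0.951), was near 0 and had no stable sign.

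S100a1 (ENSMUSG00000044080, chromosome 3, 90511034 to 90514392, minus strand) encodes an S100 protein best known from heart and skeletal muscle and also present in astrocytes and neurons. It stood at 29.0, 28.3, 36.5 and 39.8 CPM in YAP-M, 34.8, 13.9 and 19.2 CPM in YMdIDR, 63.1, 54.9 and 76.1 CPM in SVZ and 0.122 and 0.0815 CPM in NSC-YAP. SVZ was the highest group, without overlap with any other, and NSC-YAP was close to the floor. YMdIDR was called lower than SVZ at -1.52 ± 0.29 (log2, SE, adjusted p = 5.00e-04), whereas YAP-M at -0.95 ± 0.26 (adjusted p = 0.00554) missed the fold minimum; it passed, at -1.01, without SVZ replicate 2. The difference between YAP-M and YMdIDR was 0.56 ± 0.27 (adjusted p = 0.110), and without YMdIDR replicate 1 it was 1.01 and called. Summed levels of 6 astrocyte markers were 4143 to 5591 CPM in SVZ, 1934 to 2882 CPM in YAP-M, 537 to 1669 CPM in YMdIDR and 4085 to 4112 CPM in NSC-YAP, and those of 6 neuronal markers 3602 to 3720.1, 184 to 512, 215 to 285 and 751 to 821 CPM. Most of the astrocyte sum in NSC-YAP came from Slc1a3, at 3697 to 3750.2 CPM, and the other 5 markers were called lower there than in SVZ, beside 27.6% of all tested genes. The part of astrocytes and neurons in the levels of S100a1 and S100a16 was not tested.

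S100a13 (ENSMUSG00000042312, chromosome 3, 90514435 to 90524581, plus strand), whose product takes part in the release of proteins that lack a signal peptide, lies head to head with S100a1. The starts of these genes are 43 bases apart in the files. S100a13 held 15.2, 15.3, 15.8 and 15.0 CPM in YAP-M, 21.3, 20.3 and 17.9 CPM in YMdIDR, 18, 18.2 and 21.7 CPM in SVZ and 0.122 and 0.204 CPM in NSC-YAP. Of the 26 tested members it was the steadiest in YAP-M, with a coefficient of variation of 2.15%. Both genes of the shared window were near 0 in NSC-YAP, and their order among the other 3 groups differed. YAP-M exceeded NSC-YAP by 6.51 ± 0.23 (log2, SE, adjusted p = 4.65e-09) in S100a13 and by 8.29 ± 0.57 (adjusted p = 2.59e-07) in S100a1. In YAP-M against SVZ, S100a13 gave -0.33 ± 0.12 (adjusted p = 0.0247), under the fold minimum.

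S100a8 and S100a9, whose products form calprotectin, the main calcium-binding protein of neutrophils, were low in all groups. S100a8 (ENSMUSG00000056054, chromosome 3, 90668978 to 90670035, plus strand) stood at 2.50, 3.82, 7.93 and 2.26 CPM in YAP-M, 1.41, 1.13 and 0.839 CPM in YMdIDR, 0.184, 0.450 and 0.684 CPM in SVZ and at 0 in both NSC-YAP libraries. S100a9 (ENSMUSG00000056071, chromosome 3, 90692632 to 90695721, minus strand) stood at 1.55, 2.00, 5.80 and 1.67 CPM in YAP-M, 0.641, 0.315 and 0.265 CPM in YMdIDR, 0.921, 0.584 and 1.66 CPM in SVZ and at 0 in both NSC-YAP libraries. YAP-M replicate 3 was the highest library for both genes. For S100a8 the log2 fold change of YAP-M was 3.22 ± 0.58 over SVZ (SE, adjusted p = 4.51e-04) and 1.87 ± 0.52 over YMdIDR (adjusted p = 0.0152), and the latter was not called without YMdIDR replicate 3 (1.69, adjusted p = 0.0543). S100a9 was higher than in YMdIDR by 2.73 ± 0.63 (adjusted p = 0.00643) and than in SVZ by 1.38 ± 0.57 (adjusted p = 0.0465), where the groups overlapped. Outside YAP-M, S100a9 reached 1 CPM in SVZ replicate 3 alone, so it passed the filter only through the YAP-M libraries. Its calls as higher in YAP-M thus rest on the group that admitted it to the test. Without YAP-M replicate 3 the S100a9 difference from SVZ was 0.83 (adjusted p = 0.101) and not called, and it was also lost without YMdIDR replicate 3, SVZ replicate 1 or SVZ replicate 2 (adjusted p from 0.0529 to 0.137). Over 3 counts in the NSC-YAP group, YAP-M was at least 65.4-fold higher for S100a8 and at least 43.3-fold higher for S100a9.

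Some neutrophil transcripts were also highest in that library, and others were not. Retnlg, Cxcr2 and Mmp8 are genes of mature neutrophils. Retnlg stood at 0.405, 0.445, 2.26 and 0.260 CPM in YAP-M replicates 1 to 4, Cxcr2 at 0.184, 0.593, 2.22 and 0.816 CPM and Mmp8 at 0.515, 0.445, 2.13 and 0.890 CPM, each highest in replicate 3. Csf3r was lowest in replicate 3, at 22.4 CPM, and Ngp and Ltf, genes of neutrophil granules, were even across the YAP-M libraries, at 0.294 to 0.408 and 0.333 to 0.405 CPM. The list's markers Ly6g, Mpo, Elane and Camp were at or below 0.128 CPM in every YAP-M library, and Ly6g and Elane were at 0 in all YMdIDR and SVZ libraries. Summed over 10 neutrophil markers the level was 28.2 to 30.0 CPM in YAP-M, 29.0 to 58.9 CPM in YMdIDR, 7.97 to 10.1 CPM in SVZ and 0.122 CPM in both NSC-YAP libraries. Csf3r, a receptor also found on microglia and macrophages, made up most of it, at 22.4 to 26.9 CPM in YAP-M and 6.31 to 8.00 CPM in SVZ. Of these 10, Csf3r and Cxcr2 passed the filter, and both were called higher in YAP-M than in SVZ, beside 25.8% of all tested genes. Cxcr2 reached 1 CPM only in YAP-M replicate 3 and YMdIDR replicate 1. Among untested markers, the means of Retnlg, Mmp8 and Ltf were higher in YAP-M than in SVZ, and those of Ngp, Mpo and Camp were lower. Ngp was 0.645 to 1.08 CPM in SVZ, above every YAP-M library. The part of neutrophils in the levels of S100a8 and S100a9 was not tested.

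**Figure D2:**
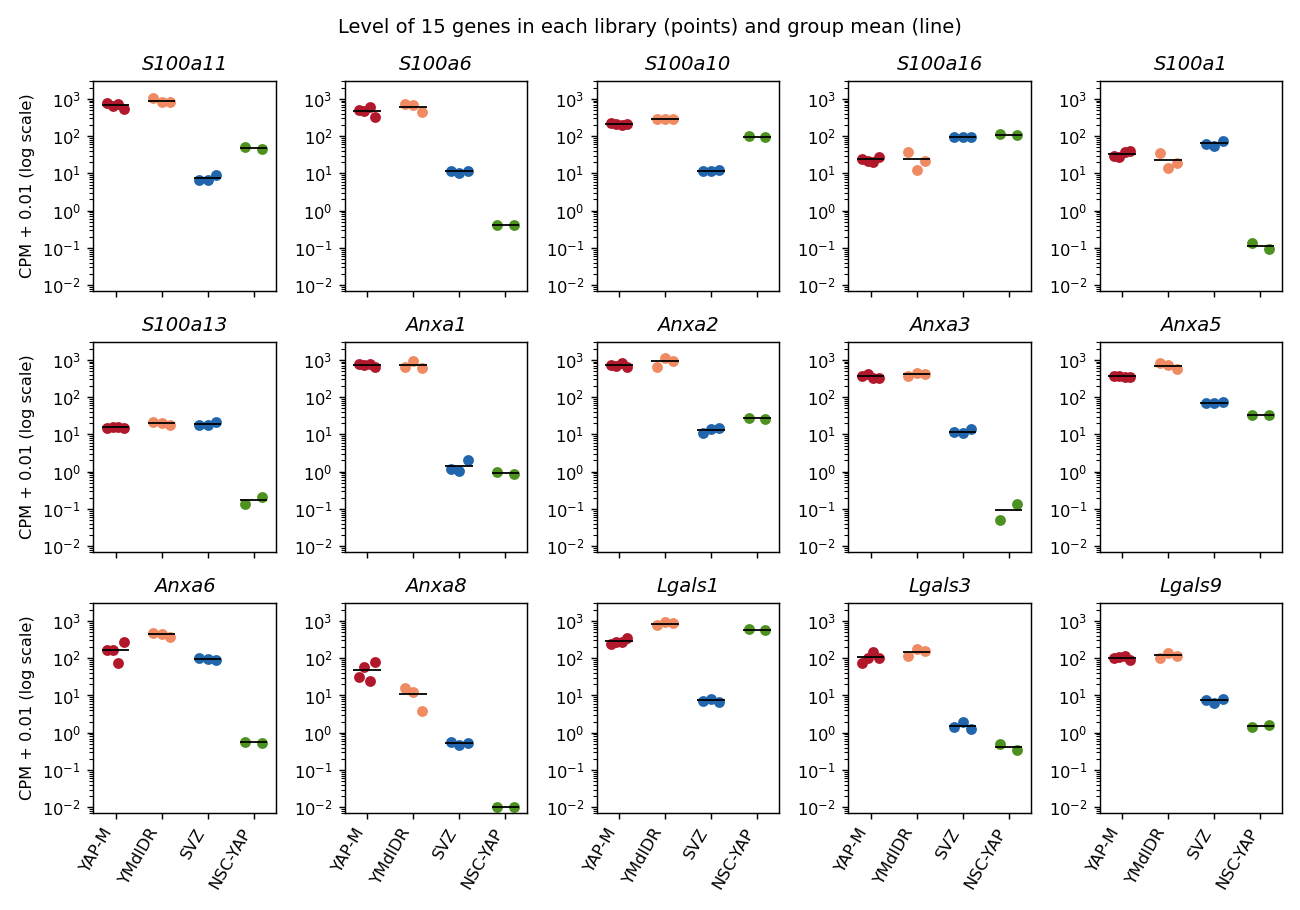
Level of 15 genes in each library (points, vertical axis CPM + 0.01 on a log scale) by group (horizontal axis), with the group mean as a line. S100a11, Anxa1, Anxa2, Anxa3 and Lgals3 are high in all YAP-M and YMdIDR libraries, S100a16 and S100a1 are highest in SVZ or NSC-YAP, and Lgals1 is low only in SVZ.

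Anxa1, Anxa2, Anxa3 and Anxa5 were the annexins with the highest levels in YAP-M and YMdIDR. Of 10 tested Anxa genes, 7 were called higher in YAP-M than in SVZ (25.8% of all tested genes) and 9 in YMdIDR than in SVZ (26.9%). None was called lower in either, beside 28.9% and 29.6% of all tested genes. By adjusted p alone 2 more, Anxa6 and Anxa11, were higher in YAP-M. Anxa1 (ENSMUSG00000024659, chromosome 19, 20373428 to 20390944, minus strand) encodes a protein that limits inflammation through formyl peptide receptors. It stood at 762, 744, 799 and 659 CPM in YAP-M, 652, 924 and 597 CPM in YMdIDR, 1.15, 1.03 and 2.00 CPM in SVZ and 0.977 and 0.856 CPM in NSC-YAP. The 7 YAP-M and YMdIDR libraries were far above the other 5, which were all at or below 2.00 CPM. YAP-M exceeded SVZ by a log2 fold change of 9.05 ± 0.29 (SE, adjusted p = 2.47e-09), the largest of the 26 members in that comparison, and NSC-YAP by 9.65 ± 0.36 (adjusted p = 5.83e-09). YAP-M and YMdIDR overlapped, at 0.03 ± 0.18 (adjusted p = 0.899), and so did not differ beyond their spread; NSC-YAP against SVZ was -0.60 ± 0.32 (adjusted p = 0.120), and 0.90 with quantile normalization. The receptor genes Fpr1 and Fpr2 were low, at 0.405 to 1.93 and 0.625 to 3.34 CPM in YAP-M against 0.539 to 1.06 and 0.584 to 1.06 CPM in SVZ, and neither was called in that comparison (adjusted p = 0.159 and 0.119).

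Anxa2 (ENSMUSG00000032231, chromosome 9, 69453620 to 69491795, plus strand) encodes the heavy chain of the heterotetramer with S100A10. Its levels were 727, 697, 827 and 629 CPM in YAP-M, 662, 1119 and 959.9 CPM in YMdIDR, 11.1, 13.9 and 15.0 CPM in SVZ and 27.8 and 26.6 CPM in NSC-YAP. YAP-M and YMdIDR overlapped, NSC-YAP lay above SVZ, and both of these were far below. The log2 fold change was 5.75 ± 0.22 (SE) in YAP-M over SVZ (adjusted p = 6.18e-09), 4.73 ± 0.25 over NSC-YAP (adjusted p = 4.00e-08) and -0.34 ± 0.17 against YMdIDR (adjusted p = 0.119). NSC-YAP exceeded SVZ by 1.03 ± 0.21 (adjusted p = 0.00101), a call that was lost at 0.92 without SVZ replicate 1.

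The partners Anxa2 and S100a10 kept different proportions in the groups. Divided by gene length, S100a10 stood at 0.754 to 1.04 times the level of Anxa2 in YAP-M, 0.805 to 1.33 times in YMdIDR, 2.48 to 3.28 times in SVZ and 10.7 to 10.96 times in NSC-YAP. In YAP-M the mean levels were 174 and 193 CPM per kilobase for S100a10 and Anxa2, and in NSC-YAP 79.1 and 7.29 CPM per kilobase. The ratio compares transcripts of 2 genes per length and was not tested. Its size depends on the annotated lengths used, 1212 bases for S100a10 and 3731 for Anxa2, so only its change between groups can be read.

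**Figure D3:**
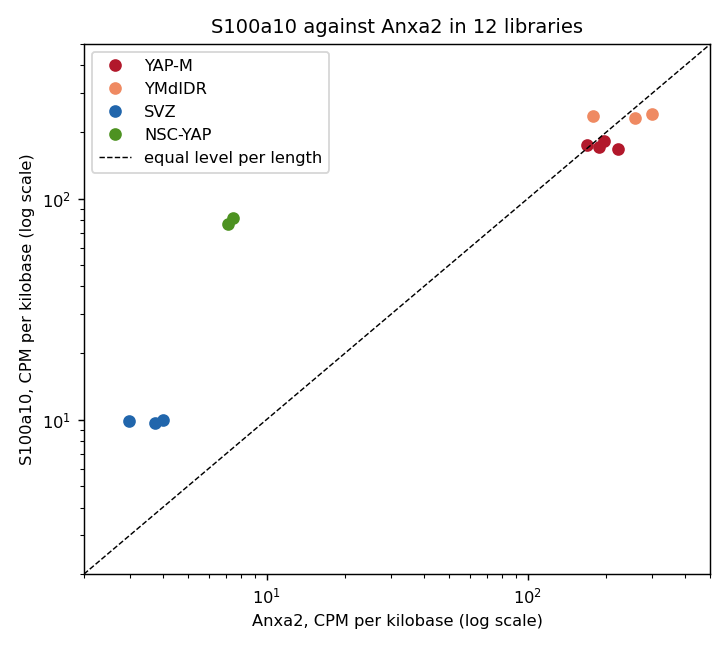
S100a10 (vertical axis) against Anxa2 (horizontal axis) in CPM per kilobase, both on log scales, with 1 point for each of the 12 libraries. YAP-M and YMdIDR lie near the dashed line of equal levels, and SVZ and NSC-YAP lie above it, with ratios of 2.48 to 3.28 and 10.7 to 10.96.

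Anxa3 (ENSMUSG00000029484, chromosome 5, 96793339 to 96845966, plus strand) encodes an annexin found in macrophages and in several carcinomas. It held 369, 412, 329 and 329 CPM in YAP-M, 365, 439 and 413 CPM in YMdIDR, 11.5, 10.7 and 13.8 CPM in SVZ and 0.0407 and 0.122 CPM in NSC-YAP. YAP-M and YMdIDR overlapped, SVZ was lower, and NSC-YAP was near 0. YAP-M was above SVZ by 4.91 ± 0.16 (log2, SE, adjusted p = 2.67e-09) and above NSC-YAP by 12.02 ± 0.31 (adjusted p = 1.11e-09), where the lower group rests on 4 counts in all.

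Anxa5 (ENSMUSG00000027712, chromosome 3, 36448923 to 36475894, minus strand) encodes the annexin used as a probe for phosphatidylserine on dying cells. The values were 372, 366, 353 and 354 CPM in YAP-M, 807, 734 and 561 CPM in YMdIDR, 68.4, 67.8 and 74.2 CPM in SVZ and 33.9 and 33.5 CPM in NSC-YAP. No groups overlapped, and the order was YMdIDR, YAP-M, SVZ and NSC-YAP. The log2 fold change was 2.36 ± 0.12 (SE) in YAP-M over SVZ (adjusted p = 3.89e-08) and -0.96 ± 0.11 against YMdIDR (adjusted p = 1.22e-04), just short of the fold minimum, which it passed at -1.10 without YMdIDR replicate 3. NSC-YAP against SVZ was -1.06 ± 0.14 (adjusted p = 4.75e-05) and fell short of the fold minimum without YAP-M replicate 1 or 3, at -0.99 in both cases.

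Anxa6 (ENSMUSG00000018340, chromosome 11, 54979108 to 55033445, minus strand) encodes a large annexin of endosomes with a duplicated core. It varied widely within YAP-M, with values of 161, 166, 75.0 and 268 CPM in YAP-M, 470.0, 457 and 370.3 CPM in YMdIDR, 101, 96.1 and 90.8 CPM in SVZ and 0.570 and 0.530 CPM in NSC-YAP. YAP-M replicate 3 lay below all SVZ libraries and replicate 4 was the highest of its group, a coefficient of variation of 47.1%. YAP-M was lower than YMdIDR, at -1.37 ± 0.30 (log2, SE, adjusted p = 0.00427), with no overlap. Over SVZ it was 0.80 ± 0.31 (adjusted p = 0.0329), not called, but 1.15 and called without YAP-M replicate 3. The YMdIDR libraries were above SVZ by 2.17 ± 0.34 (adjusted p = 1.17e-04).

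Anxa7 (ENSMUSG00000021814, chromosome 14, 20455260 to 20480133, minus strand) encodes synexin, an annexin of secretory vesicles. Its levels were 109.5, 106, 103 and 88.6 CPM in YAP-M, 95.6, 119 and 129 CPM in YMdIDR, 46.4, 41.6 and 40 CPM in SVZ and 1.79 and 2.57 CPM in NSC-YAP. YAP-M and YMdIDR overlapped, and both were above SVZ, by 1.25 ± 0.14 (log2, SE, adjusted p = 8.15e-06) for YAP-M. Anxa4 and Anxa11 followed in part: Anxa4 was 46.6 to 50.7 CPM in YAP-M and 4.56 to 8.80 CPM in SVZ and was called higher at 2.77 ± 0.20 (adjusted p = 3.54e-07). Anxa11 was 38.1 to 53.4 CPM in YAP-M and 20.6 to 28.5 CPM in SVZ, at 0.87 ± 0.18 (adjusted p = 8.02e-04), under the fold minimum. Anxa9, at 0.594 to 1.71 CPM in YAP-M and 1.32 to 3.49 CPM in YMdIDR, overlaps Mindy1 on the opposite strand, and its reads cannot be assigned with certainty.

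Anxa8 (ENSMUSG00000021950, chromosome 14, 34085981 to 34100571, plus strand), an annexin of epithelia and of some leukaemias, separated YAP-M from YMdIDR. It stood at 31.6, 56.3, 25.0 and 79.3 CPM in YAP-M, 16.2, 12.3 and 3.75 CPM in YMdIDR, 0.553, 0.450 and 0.538 CPM in SVZ and at 0 in both NSC-YAP libraries. All YAP-M libraries were above all YMdIDR libraries, and these above all SVZ libraries. YAP-M exceeded YMdIDR by 2.16 ± 0.51 (log2, SE, adjusted p = 0.00703) and SVZ by 6.54 ± 0.69 (adjusted p = 1.06e-05). With NSC-YAP set at 3 counts over the group, YAP-M was at least 799-fold and YMdIDR at least 177-fold higher. Most epithelial transcripts differed in the same direction, and 1 in the other. The sum of 6 epithelial markers was 288 to 1463 CPM in YAP-M, 117 to 169.6 CPM in YMdIDR, 4.38 to 11.1 CPM in SVZ and 0.366 to 0.489 CPM in NSC-YAP. Krt8 and Krt18, keratins of simple epithelium, made up most of it in YAP-M, at 72.0 to 531 and 193 to 872 CPM. In YAP-M against YMdIDR, 3 of 5 tested epithelial markers (Krt8, Krt18 and Cdh1) were called higher and 1, Krt14, a keratin of basal epithelium, lower, at 1.67 to 14.2 against 26.7 to 36.5 CPM (-2.38, adjusted p = 0.00893). Over all tested genes 9.61% were called higher there and 6.78% lower. Krt5 was at 0 in every YAP-M, YMdIDR and NSC-YAP library. YAP-M replicate 3, highest for both keratins, was the lowest YAP-M library for Anxa8. The part of epithelial-type expression in the Anxa8 difference was not tested.

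Among the galectins, Lgals1, Lgals3 and Lgals9 were high in YAP-M and YMdIDR, and 4 of 7 tested Lgals genes were called higher in YAP-M than in SVZ, beside 25.8% of all tested genes. Lgals1 (ENSMUSG00000068220, chromosome 15, 78926725 to 78930465, plus strand) encodes galectin-1, a dimeric galectin made by mesenchymal and neural stem cells. It stood at 245, 269, 271 and 356 CPM in YAP-M, 784, 910.2 and 859 CPM in YMdIDR, 7.28, 8.18 and 6.74 CPM in SVZ and 598.5 and 569 CPM in NSC-YAP. No groups overlapped: YMdIDR was highest, followed by NSC-YAP, YAP-M and, far below, SVZ. YAP-M exceeded SVZ by 5.27 ± 0.16 (log2, SE, adjusted p = 2.38e-09), and NSC-YAP exceeded SVZ by 6.30 ± 0.18 (adjusted p = 3.40e-09). YAP-M was lower than YMdIDR, at -1.58 ± 0.13 (adjusted p = 2.58e-05), and than NSC-YAP, at -1.03 ± 0.14 (adjusted p = 4.92e-05). The last value sits at the fold minimum and was between -0.87 and -0.997 under 11 alternatives, which ended the call.

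Lgals3 (ENSMUSG00000050335, chromosome 14, 47367751 to 47386160, plus strand) encodes galectin-3, a chimeric galectin abundant in macrophages and reactive microglia. Its levels were 75.2, 99.3, 149 and 98.6 CPM in YAP-M, 118, 173 and 152 CPM in YMdIDR, 1.38, 1.93 and 1.27 CPM in SVZ and 0.488 and 0.326 CPM in NSC-YAP. YAP-M and YMdIDR overlapped and were above all SVZ and NSC-YAP libraries. The log2 fold change was 6.10 ± 0.30 (SE) in YAP-M over SVZ (adjusted p = 3.10e-08) and 8.00 ± 0.42 over NSC-YAP (adjusted p = 3.85e-08), against -0.48 ± 0.22 for YMdIDR (adjusted p = 0.0919).

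Lgals9 (ENSMUSG00000001123, chromosome 11, 78962974 to 78984946, minus strand) encodes galectin-9, a tandem-repeat galectin and ligand of the immune receptor TIM-3. It held 101, 106, 112 and 91.7 CPM in YAP-M, 102, 141 and 113 CPM in YMdIDR, 7.65, 6.38 and 7.97 CPM in SVZ and 1.38 and 1.59 CPM in NSC-YAP. The order was the same as for Lgals3, and YAP-M exceeded SVZ by 3.81 ± 0.15 (log2, SE, adjusted p = 6.60e-09) and NSC-YAP by 6.10 ± 0.21 (adjusted p = 4.05e-09). Havcr2, which encodes TIM-3, was 43.6 to 59.9 CPM in YAP-M and 2.56 to 4.84 CPM in SVZ and rose by 3.91 ± 0.26 (adjusted p = 2.10e-07). Of 10 microglia and macrophage markers, 8 were called higher in YAP-M than in SVZ, beside 25.8% of all tested genes. Lyz2 changed most, at 574 to 1116 CPM against 4.24 to 8.41 CPM. Cx3cr1 rose by 0.69 (adjusted p = 0.00535) and P2ry12 was lower in YAP-M, at -0.80 (adjusted p = 0.00713), both under the fold minimum. The ranges of the markers' summed level, given above, did not overlap between YAP-M or YMdIDR and SVZ. The part of these cells in the levels of Lgals3, Lgals9, Anxa1, Anxa3 and S100a4 was not tested.

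Lgals8 (ENSMUSG00000057554, chromosome 13, 12439415 to 12464944, minus strand) encodes galectin-8, a tandem-repeat galectin that marks damaged endosomes. It stood at 39.4, 37.5, 40.9 and 40.9 CPM in YAP-M, 31.2, 35.9 and 35.6 CPM in YMdIDR, 23.5, 25.4 and 25.2 CPM in SVZ and 38.4 and 38.3 CPM in NSC-YAP. SVZ was the lowest group without overlap, and the difference from YAP-M, 0.68 ± 0.09 (log2, SE, adjusted p = 2.43e-05), was under the fold minimum. The gene overlaps Heatr1 on the opposite strand, so its counts may hold reads of that gene.

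Lgals4 and Lgals2, galectins of the gut, were low and highest in NSC-YAP. Lgals4 (ENSMUSG00000053964, chromosome 7, 28833854 to 28841708, plus strand) stood at 1.21, 1.82, 2.47 and 1.67 CPM in YAP-M, 1.88, 1.13 and 0.662 CPM in YMdIDR, 1.38, 1.48 and 1.81 CPM in SVZ and 3.79 and 5.59 CPM in NSC-YAP. Lgals2 (ENSMUSG00000043501, chromosome 15, 78850862 to 78855529, minus strand) stood at 0.0368, 0.185, 0.384 and 0.408 CPM in YAP-M, 0.470, 0.360 and 0.309 CPM in YMdIDR, 0.461, 0.270 and 0.0489 CPM in SVZ and 3.83 and 4.24 CPM in NSC-YAP. Both NSC-YAP libraries were above all others for both genes. Lgals2 passed the filter only through those NSC-YAP libraries, being at or below 0.470 CPM elsewhere. Its calls against NSC-YAP thus rest on the group that admitted it to the test. NSC-YAP exceeded SVZ by 1.59 ± 0.40 (log2, SE, adjusted p = 0.00467) for Lgals4 and by 3.92 ± 0.67 (adjusted p = 3.54e-04) for Lgals2. The Lgals4 call was lost without NSC-YAP replicate 2, at 1.29 (adjusted p = 0.0507). Lgals2 overlaps Cdc42ep1 on the opposite strand, which had 18642 counts over the 12 libraries against 267 for Lgals2, so its reads cannot be assigned with certainty. Lgals7, a galectin of stratified epithelium, was 1.48 to 4.26 CPM in YAP-M, 1.15 to 2.52 CPM in YMdIDR, 0.0461 to 0.0977 CPM in SVZ and 0 in NSC-YAP, and was called higher in YAP-M than in SVZ at 5.14 ± 0.61 (adjusted p = 2.49e-05). Lgals12, untested, had 32 counts over the SVZ libraries and none in YMdIDR, and was at least 11.3-fold higher in SVZ.

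**Figure D4:**
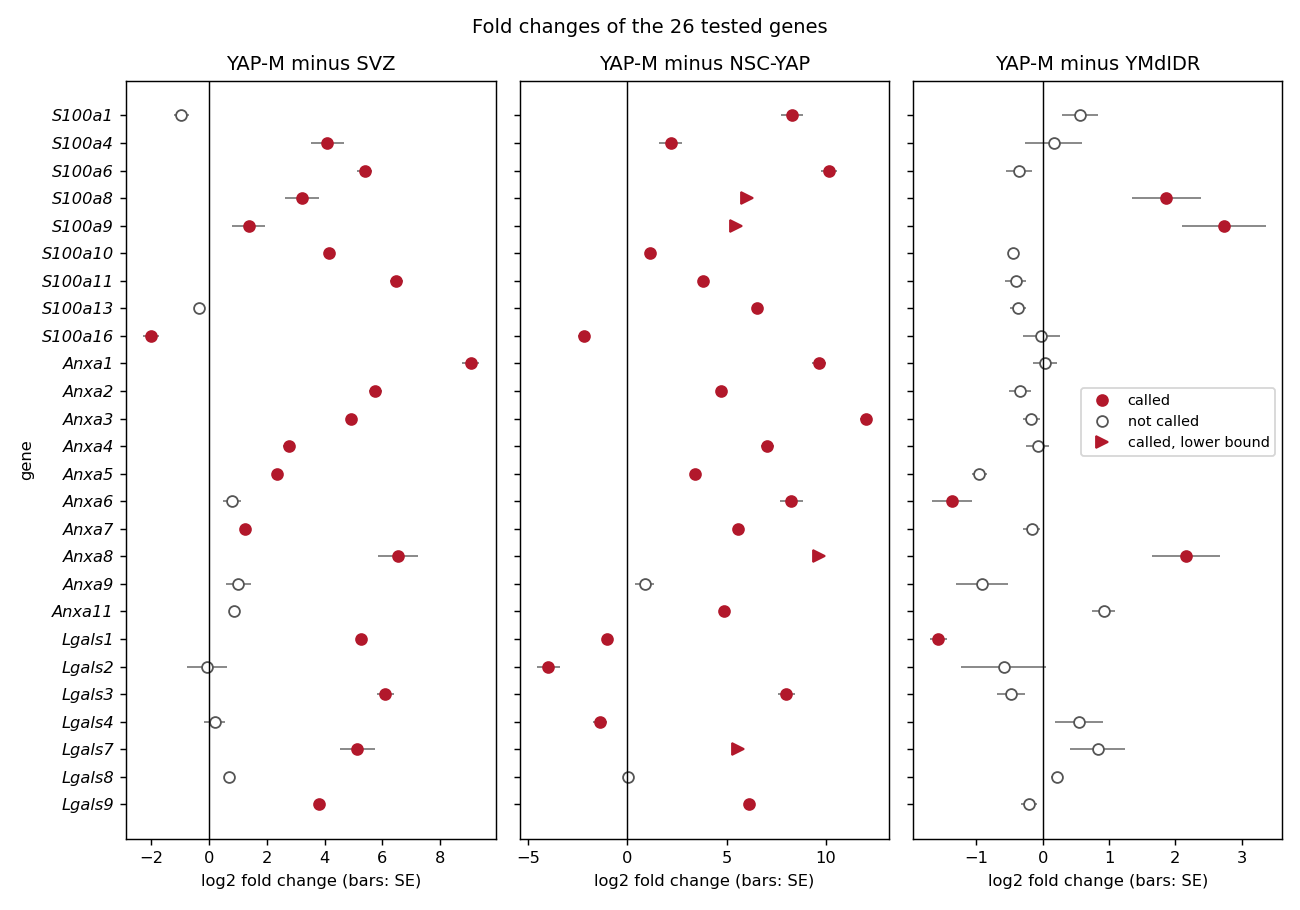
Log2 fold change (horizontal axis, bars are SE) of the 26 tested genes (vertical axis) in YAP-M against SVZ, NSC-YAP and YMdIDR; filled points were called, open points were not, and triangles are lower bounds for 4 genes with no count in NSC-YAP. Most points lie right of 0 in the first 2 panels and near 0 in the panel against YMdIDR, whose axis is narrower.

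Levels compared per gene length gave the order of the members within a group. In YAP-M the highest were S100a11 at 1306, Lgals1 at 356, S100a6 at 346 and Anxa1 at 284 mean CPM per kilobase. In YMdIDR they were S100a11 at 1734, Lgals1 at 1064 and S100a6 at 444 CPM per kilobase. SVZ had another order, led by S100a1 at 93.2, S100a16 at 58.4 and Anxa5 at 39.5 CPM per kilobase. In NSC-YAP, Lgals1 stood at 729.8 CPM per kilobase and the next member, S100a11, at 93.8.

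All 13 S100a genes lie on chromosome 3, 11 of them within 182 kb and S100a11 and S100a10 about 3 Mb further on. Among those that passed the filter, the pattern over the groups changed along the cluster. S100a4, S100a6 and S100a8 had the means of YAP-M and YMdIDR above SVZ, as did S100a10 and S100a11 at the far end, while S100a1, S100a13 and S100a16 at the near end did not. S100a8 was not called in YMdIDR against SVZ (1.35, adjusted p = 0.0617). S100a9, next to S100a8, was above SVZ in YAP-M alone, with means of 2.75 CPM in YAP-M, 0.407 CPM in YMdIDR and 1.06 CPM in SVZ. S100a5, which lies between S100a4 and S100a6, had at most 7 counts summed over any group. S100a3 overlaps S100a2 on the same strand, and neither passed the filter.

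**Figure D5:**
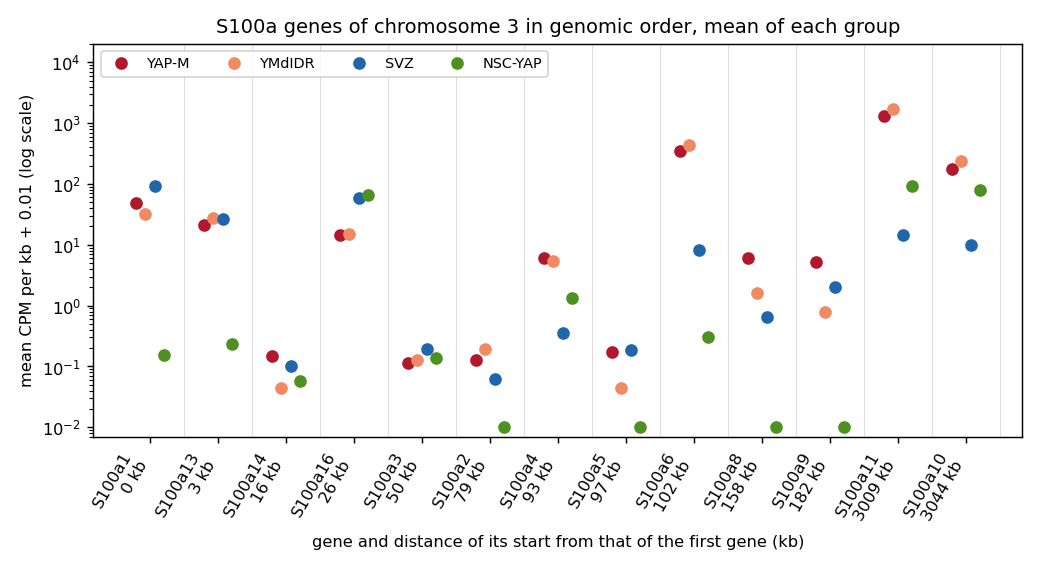
Mean level of the 13 S100a genes in each group (vertical axis, CPM per kilobase + 0.01 on a log scale) in genomic order, with the distance of each start from that of S100a1 in kilobases (horizontal axis). The YAP-M and YMdIDR points stand above SVZ at S100a4, S100a6, S100a8, S100a11 and S100a10, and below it at S100a1 and S100a16. At S100a9 and S100a13 they lie on opposite sides of SVZ. S100a2, S100a3, S100a5 and S100a14, which did not pass the filter, are low in every group and are left out of this sorting.

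Genes that act with these families were read from lists of partners. A list held partners of annexin A2 and S100A10 in plasminogen activation, a process that both promote at the cell surface. Of its 8 tested genes, 5 were called higher in YAP-M than in SVZ and 1 lower, with a median log2 fold change of 3.69. Ahnak and Ahnak2 were among the 5. The list mixes activators, receptors, protease inhibitors and these scaffolds, so its count does not give the direction of plasminogen activation. Over all tested genes 25.8% were called higher and 28.9% lower. Plaur, the urokinase receptor, was 53.0 ± 6.09 CPM (SD, n = 4) in YAP-M and 1.10 ± 0.0227 CPM (SD, n = 3) in SVZ, a rise of 5.58 ± 0.17 (log2, SE, adjusted p = 2.34e-09). Plau, the urokinase itself, rose by 3.70 and Ahnak, a giant scaffold bound by the heterotetramer, by 5.36 (adjusted p = 5.41e-07 and 5.85e-08). The gene called lower was Serpine2, an inhibitor of serine proteases. In YAP-M against NSC-YAP, 5 genes of the list were called higher (28.9% of all tested genes), Plaur, Plau, Ahnak and Ahnak2 among them. Called lower were 2 (21.6%), Serpine2 at -3.97 and Plat, the tissue activator, at -2.86. Against YMdIDR these same 2, Serpine2 at 1.37 and Plat at 1.99, were called higher in YAP-M, beside 9.61% of all tested genes.

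In the list of calcium-dependent membrane repair, 7 of 14 genes were called higher in YAP-M than in SVZ and 2 lower, with a median of 1.03. The shares over all tested genes were 25.8% and 28.9%. Myof and Dysf, ferlins that fuse vesicles to torn membrane, were 191 to 229 and 47.9 to 55.2 CPM in YAP-M against 3.96 to 6.70 and 3.78 to 4.90 CPM in SVZ. They rose by 5.31 ± 0.23 and 3.52 ± 0.26 (log2, SE, adjusted p = 1.36e-08 and 3.92e-07). Capn2 and Capns1, the subunits of a calpain protease, rose by 2.40 and 1.06 (adjusted p = 2.67e-09 and 6.39e-07). The genes called lower, Syt7 at -4.41 and Otof at -2.91, act in vesicle release of neurons and hair cells. Against NSC-YAP, 4 genes of the list (Myof, Dysf, Capn2 and Otof) were called higher in YAP-M, a share near the 28.9% of all tested genes, and 1, Syt7, lower (21.6%). Against YMdIDR only Otof was called, higher at 3.10, beside 9.61% of all tested genes called higher.

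Of 6 genes for S100 receptors, 2 were called higher in YAP-M than in SVZ and none lower, a higher share near the 25.8% of all tested genes. Tlr4, the receptor for the S100A8 and S100A9 complex, stood at 5.71 to 7.90 CPM in YAP-M and 0.977 to 1.35 CPM in SVZ, a rise of 2.48 ± 0.20 (log2, SE, adjusted p = 7.00e-07), and Cd36, a scavenger receptor, rose by 2.38 ± 0.66 (adjusted p = 0.00588). Bsg, which encodes basigin, was 322 to 372 CPM in YAP-M and 419 to 455 CPM in SVZ, with a difference of -0.33 ± 0.08 (adjusted p = 0.00249) that was under the fold minimum. S100b, the S100 gene of astrocytes and oligodendrocytes, which the naming rule left out, fell in YAP-M against SVZ, from 141 to 188 CPM to 18.2 to 42.6 CPM (-2.51 ± 0.43, adjusted p = 2.31e-04).

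Among relatives and glycoprotein ligands of galectins, 7 of 10 tested genes were called higher in YAP-M than in SVZ (25.8% of all tested genes) and 1 lower (28.9%), with a median of 2.02. Lgals3bp, a secreted glycoprotein bound by galectin-3, rose by 2.71 ± 0.17 (log2, SE, adjusted p = 1.58e-07). Cd44, the hyaluronan receptor, rose by 4.27 ± 0.24 (adjusted p = 6.92e-08), and Itgb1, the integrin beta-1 chain, by 2.52 ± 0.16 (adjusted p = 1.58e-07). Of 7 enzymes that branch or extend the glycans galectins bind, 2 were called higher and 1 lower, beside 25.8% and 28.9% of all tested genes, so the higher share was near the background. B4galt1, which adds galactose, rose from 5.25 to 8.72 CPM in SVZ to 102 to 118 CPM in YAP-M (3.85 ± 0.19, adjusted p = 2.73e-08) and Mgat2 by 1.64 ± 0.08 (adjusted p = 3.43e-08), while Mgat5, which makes the branch preferred by galectin-3, fell by 1.49 (adjusted p = 2.54e-06). None of these 7 was called between YAP-M and YMdIDR.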

How the data were processed

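The 12 RNA-seq libraries of the series were used; 5 samples of DNA binding were not analysed here. TRIzol and RNeasy served for extraction and an Illumina TruSeq RNA kit for the libraries, per the labels' protocols. The authors deposited raw counts per gene in 1 table per library, with gene coordinates and lengths and no normalization. TopHat2 and mm10 are named per the submitters' processing notes. How reads were counted (program, strand, multiple hits, annotation) is not given in the sources used here, so near-identical, overlapping or antisense genes may share reads.

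Lines with the same symbol were added up; each member had 1 line. The 18329 genes that reached 1 CPM in 2 or more libraries were scaled by TMM and tested with edgeR 4.0.16 (R 4.3.3; quasi-likelihood, all 12 libraries, 1 coefficient for each group), with Benjamini-Hochberg adjustment over all of them. The script was tested on simulated data. Depth, from 20784130 to 25463303 counts, sets the precision. For a group with no count a floor of 3 counts over the group was used, which covers counting error only. Fold changes are given with standard errors and levels with standard deviations. The results were recomputed without the filter, with a minimum of 5 CPM, median-ratio scaling, quantile normalization (limma 3.58.1), a replicate block, DESeq2 1.42.0, 1 entry for each symbol, the 2 groups of a comparison by themselves, no fold minimum, and without each library in turn.

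Groups follow the sample titles. The members and lists were chosen with earlier results of these data known. Described in each library were the 6 members of each family with the highest group mean, the 3 largest called changes of each comparison (groups without overlap and a higher mean of 5 CPM or more), S100a8, S100a9 and S100a10. From each list up to 4 genes with the smallest adjusted p in YAP-M against SVZ were named; other list genes were named after their values were seen. The values of 1 list gene are not reported here.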

Additional observations from a re-analysis of the deposited data

Results flagged for a closer look

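S100a9 in YAP-M had 1 library far from the others: replicate 3 stood at 5.80 CPM, beside 1.55, 2.00 and 1.67 CPM, a gap of 0.893 of the group's range, which is above the limit of Dixon's test for 4 libraries. Of the 26 members screened in YAP-M no other had such a library, and by chance alone about 1 in 20 groups would. The same library was highest in its group for S100a8 (7.93 CPM), Retnlg (2.26 CPM), Cxcr2 (2.22 CPM), Krt8 (531 CPM) and Krt18 (872 CPM), and lowest for Anxa6 (75.0 CPM) and Anxa8 (25.0 CPM). Of the other neutrophil markers, Mmp8 was also highest in replicate 3 (2.13 CPM), Csf3r was lowest there (22.4 CPM), and Ngp and Ltf lay within the range of the other libraries. The Y-linked gene Ddx3y stood at 81.7 CPM in that library and at or below 0.111 CPM in the other 3. Their part in the S100a9 value was not tested.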

How the results depend on the processing

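Over 126 pairs of a described gene and a comparison, 2476 values were recomputed under the alternatives; 2413 kept direction and call, and 104 pairs kept both throughout. Counts of called members moved by more than 1.5 times in these cases. In YAP-M against SVZ the 1 member called lower became 2 with no filter, 2 with the replicate block (S100a1 was called there, at -1.04) and 3 by adjusted p alone. In YAP-M against YMdIDR the 3 called higher became 1 with a minimum of 5 CPM, and the 2 called lower became 5 by adjusted p alone. A minimum of 5 CPM, which tests fewer genes, left 1 of the 4 lower in YAP-M than in NSC-YAP and 1 of the 3 lower in YMdIDR than in NSC-YAP. Leaving out each library gave 16 to 18 higher and 1 to 2 lower in YAP-M against SVZ, 2 to 5 and 2 to 3 against YMdIDR, and 20 to 21 and 2 to 4 against NSC-YAP. It gave 17 to 18 and 2 to 3 in YMdIDR against SVZ, 19 to 21 and 2 to 3 in YMdIDR against NSC-YAP, and 4 to 7 and 13 to 15 in NSC-YAP against SVZ.

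Signs turned for 6 pairs, 5 of them with a main value that did not pass the test. Lgals2 in YAP-M against SVZ (-0.06) was 0.069 with no filter, 0.0080 with median-ratio scaling, 0.015 with DESeq2 and -0.49 to 0.66 without 1 library. S100a16 in YAP-M against YMdIDR (-0.02) was 0.024 with no filter, 0.014 with median-ratio scaling and with DESeq2, 0.094 with quantile normalization and -0.30 to 0.48 without 1 library. Leaving out 1 library gave -0.092 to 0.28 for Anxa1 in YAP-M against YMdIDR (0.03) and -0.015 to 0.14 for S100a13 in YMdIDR against SVZ (0.04). With quantile normalization Anxa1 in NSC-YAP against SVZ went from -0.60 to 0.90 and Lgals3, which had been called, from -1.90 to 0.038. The cause was not tested.

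Over 15 pairs of libraries with the same replicate number the correlation of their deviations from the group means ran from -0.0968 to 0.386, with 4 over 0.1. Of 12 libraries, 7 correlated best with their own number. These values cannot settle whether the numbers pair the samples, because deviations within such small groups depend on each other. Depth limits the genes near 0: S100a8, S100a9, Anxa8 and Lgals7 had no count in NSC-YAP, and only bounds can be given there.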

Other observations

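S100a7a, the mouse relative of psoriasin, an S100 protein of inflamed epithelium, lies outside the naming rule and was chosen after its values were seen. It stood at 152, 172, 337 and 150.1 CPM in YAP-M, 273, 304 and 131 CPM in YMdIDR, 0.322, 0.315 and 0.147 CPM in SVZ and 0 and 0.0408 CPM in NSC-YAP. All 7 YAP-M and YMdIDR libraries were above the other 5, and YAP-M replicate 3 was the highest. The log2 fold change of YAP-M over SVZ was 9.56 ± 0.57 (SE, adjusted p = 1.08e-07), and the difference from YMdIDR was -0.22 ± 0.33 (adjusted p = 0.618), within the spread of the libraries. Its level in YAP-M exceeded that of S100a8, S100a9 and S100a4 in every library.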
